A study of Homo sapiens with 9 samples.

Results

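EPC2 cells transfected with an empty vector were compared with untreated EPC2 cells, a contrast that holds the lipid reagent, the plasmid DNA and the handling together. EPC2 is an established line that the labels describe as normal esophageal squamous cells, grown in a serum-free keratinocyte medium with bovine pituitary extract and epidermal growth factor. The comparison used 6 of the 9 libraries of the series, 3 of untreated cells and 3 of cells given the vector with Lipofectamine 2000, a cationic lipid that carries DNA into cells. The remaining 3 libraries, from cells given a FOXF1 plasmid with the same reagent, entered the fit to share its estimate of the spread. All genes with enough reads were members, 16366 of 64253 in the counts. The time between transfection and harvest, the plasmid backbone and the share of transfected cells are not stated by the labels. The triplicates are called biological in the design text, and no genotype change is labelled in either group.

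Cells read misfolded protein in the endoplasmic reticulum (ER) through the sensors PERK, IRE1 and ATF6, a system called the unfolded protein response, which raises the level of ER chaperones. PERK and its sister kinases also phosphorylate the initiation factor eIF2, which slows translation in general and favours translation of ATF4. This integrated stress response (ISR) raises genes of amino acid supply and of stress signalling. Hypoxia-inducible factors (HIF), which are degraded when oxygen and the prolyl hydroxylases are active, form a separate system that raises genes of glycolysis, angiogenesis and collagen modification.

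Library totals ran from 37115645 to 39973289 counts in the 6 libraries, so a gene without a read in a library may have a level of up to 0.0751 to 0.0808 CPM (counts scaled to a common total; 3 counts taken as the limit, counting error only). The markers went against part of the squamous label: TP63 and IVL, which define basal and differentiated squamous cells, had no read in the 6 libraries pooled (an upper limit of 0.0128 CPM), KRT14 had 0 to 4 reads per library, and 16 of 24 squamous markers had too few reads to be tested. The summed level of the 24 was 234 to 249 CPM of the library total in untreated and 308 to 332 in empty vector libraries. For 15 mesenchymal markers the sum was 2738 to 2978 and 3361 to 3490, with COL1A2 at 0 in each library. For 14 simple epithelial markers it was 3880 to 4215 and 3928 to 4144. For 10 leukocyte and endothelial markers it was 8.31 to 9.67 and 11.5 to 12.7, with PTPRC at 0 in each. These sums are on library totals, where the median gene lay 0.289 higher (log2) with the empty vector. Levels of single genes are on TMM-scaled library sizes (below). On these the most abundant mesenchymal markers went both ways: COL1A1 averaged 1210 and 1487 CPM, THY1 957 and 788 and VIM 847 and 746. Those of simple epithelium were lower: KRT18 averaged 1470 and 1106, KRT8 1437 and 1318 and KRT7 1226 and 1027. VIM and KRT8 were not called with TMM scaling. In the simple epithelial list KRT18 and KRT7 were the 2 genes called lower. SOX9 was the 1 called higher (log2 fold change 0.58), and the other 7 tested were not called. The call of KRT7 was lost with library totals alone (-0.008), where KRT8 was at 0.12. The squamous list was not silent throughout: its most abundant markers were S100A2, which averaged 130 and 176 CPM, SFN at 115 and 97.3 and PAX9 at 15.4 and 18.2. With TMM scaling S100A2 was called higher and PAX9 was not called. SFN was called lower with overlapping groups, a call that was lost with library totals alone. The part of these markers in the results was not tested. In bulk RNA, fewer cells of a type and less RNA per cell cannot be told apart. The groups separated on the first principal component of the 6 libraries, which held 37% of the variance, and untreated replicate 1 stood apart on the second.

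Transfection with the empty vector changed a broad set of genes by modest amounts. By edgeR's quasi-likelihood test with Benjamini-Hochberg adjustment below 0.05, 1676 genes were called higher (10.2% of those tested) and 1533 lower (9.37%). The median absolute log2 fold change of the called genes was 0.395, and 76.1% of them changed by less than 1.5-fold. Past 2-fold there were 130 genes called higher (0.794%) and 63 called lower (0.385%). Rises led the strong end of the response. Levels and fold changes are on library sizes scaled by TMM, which balances the bulk of genes. The mitochondrial share of counts differed between the groups, and the choice of scaling moved the calls. With library totals alone the fold change of the median gene moved from 0.044 to 0.289 (log2), and calls became 5720 higher and 339 lower. The calls made under each of 4 scalings numbered 1467 higher (8.96%) and 338 lower (2.07%), and they are given below as the calls that held in all 4 scalings. Leaving out a library also moved the counts: 1029 genes were higher without untreated replicate 1, 1098 were higher and 986 lower without empty vector replicate 2, and 1113 were higher without empty vector replicate 3. Small counts within the lists below moved easily: of 35 counts of 1 or 2 called members, 28 changed with at least 1 library left out.

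**Figure D1:**
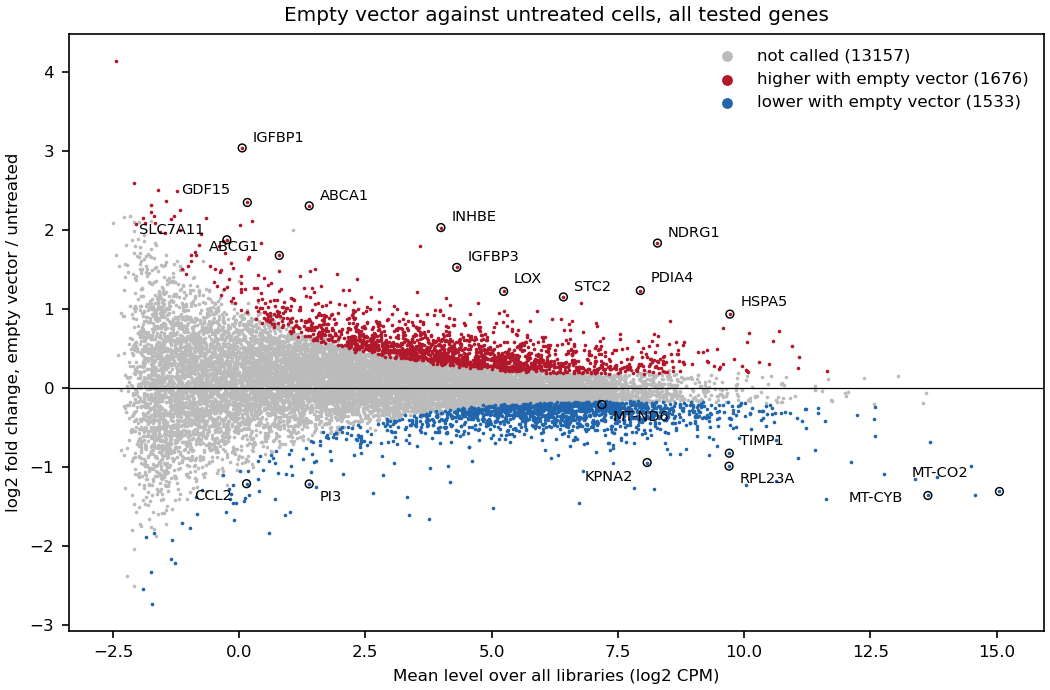
Each point is a tested gene, with its mean level over the 9 libraries (log2 CPM) on the x axis and its log2 fold change of empty vector over untreated cells on the y axis. The 1676 genes called higher reach larger changes than the 1533 called lower at low and middle levels, while the mitochondrial genes MT-CO2 and MT-CYB lie among the most abundant and the most reduced.

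The genes used to mark the response were NDRG1, ABCA1, INHBE and PDIA4. NDRG1, a cytoplasmic protein induced by hypoxia and other stresses (chromosome 8, 133237171 to 133302022, minus strand, GRCh38), was at 125, 119 and 115 CPM in the untreated and 440.0, 433 and 408 CPM in the empty vector libraries. The groups lay wide apart, with little spread within either, and the log2 fold change was 1.83 ± 0.07 (SE; adjusted p = 4.29e-18, edgeR quasi-likelihood test). INHBE, which encodes the beta E subunit of activins and is a target of the ISR (chromosome 12, 57452323 to 57459280, plus strand), was at 4.92, 5.46 and 5.93 CPM and 20.8, 23.9 and 21.8 CPM. The transfected libraries were again far above the untreated ones (log2 fold change 2.03 ± 0.12, adjusted p = 6.54e-13). PDIA4, a protein disulfide isomerase that forms and rearranges disulfide bonds in the ER (chromosome 7, 149003062 to 149028641, minus strand), was at 123, 127 and 163 CPM and 302, 334 and 332 CPM, with untreated replicate 3 the highest of its group (log2 fold change 1.23 ± 0.08, adjusted p = 1.3e-11). ABCA1, the pump that loads cholesterol onto apolipoproteins (chromosome 9, 104781002 to 104928237, minus strand), was at 0.825, 0.882 and 0.624 CPM and 3.33, 4.11 and 4.09 CPM. These are low levels, from 29, 32 and 22 and 132, 181 and 176 reads, and the groups did not overlap (log2 fold change 2.30 ± 0.25, adjusted p = 8.72e-08).

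Cells that received the FOXF1 plasmid, and so the same reagent, held NDRG1 at 395, 405 and 362 CPM and INHBE at 16.8, 21.2 and 21.7 CPM. Both ranges lay above every untreated library. Against the empty vector the log2 difference was -0.14 for NDRG1 (adjusted p = 0.501) and -0.16 for INHBE (adjusted p = 0.694), neither past the threshold in the edgeR quasi-likelihood test. ABCA1 at 3.65, 2.35 and 2.75 CPM and PDIA4 at 252, 295 and 286 CPM were again above every untreated value (adjusted p against the empty vector = 0.59 and 0.408).

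**Figure D2:**
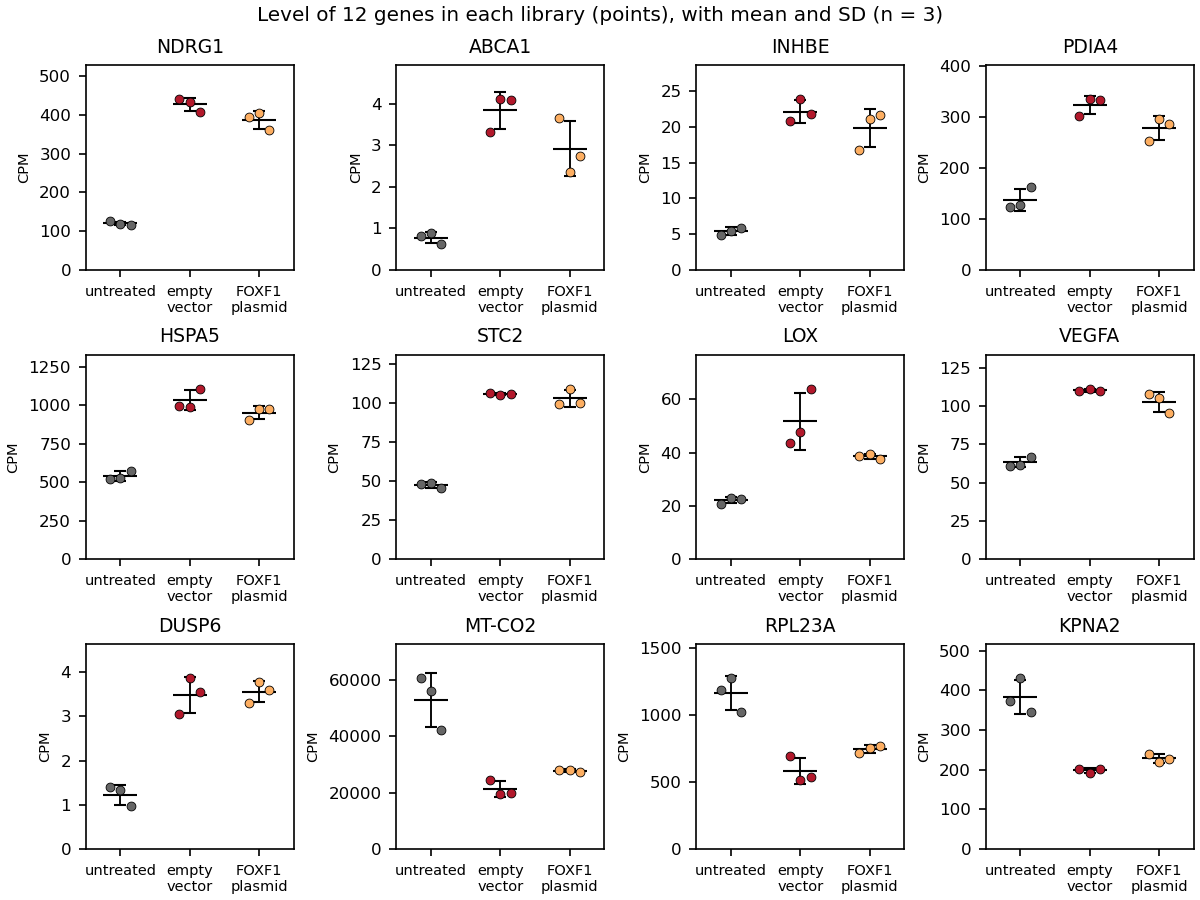
Levels of 12 genes in CPM on TMM-scaled library sizes, by group on the x axis; each point is a library and the bars give the mean and SD of 3 libraries, with each y axis starting at 0. NDRG1, ABCA1, INHBE, PDIA4, HSPA5, STC2, LOX, VEGFA and DUSP6 are higher in all 3 empty vector libraries than in any untreated one, and MT-CO2, RPL23A and KPNA2 are lower in all 3.

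Folding factors of the ER lumen rose as a group. Of 29 tested members of a list of ER chaperones and oxidoreductases, 17 were called higher and 1 lower, with a median log2 fold change of 0.41 against 0.04 for all genes, and 16 of the rises held in all 4 scalings. HSPA5, the HSP70 of the ER and the brake on its stress sensors (chromosome 9, 125234853 to 125241330, minus strand), was at 521, 526 and 577 CPM in untreated and 999, 991 and 1107 CPM in empty vector libraries. Each transfected library was far above each untreated one, with a log2 fold change of 0.93 ± 0.07 (adjusted p = 6.95e-11). HSP90B1, the HSP90 of the ER, was at 247, 247 and 250.1 CPM and 409.9, 463 and 466 CPM. The untreated libraries differed by little and all transfected ones were higher, with a log2 fold change of 0.85 ± 0.07 (adjusted p = 1.51e-10). HSPA13, a microsomal HSP70 relative, had the largest fold of the list, from 2.64, 2.48 and 3.46 to 5.22, 7.74 and 9.300 CPM, with a wide spread among the transfected libraries (log2 fold change 1.38 ± 0.21, adjusted p = 2.17e-05). The nucleotide exchange factor HYOU1 rose by 0.75 on the log2 scale, and the lectin chaperones CALR and CANX, which hold glycoproteins during folding, rose by 0.72 and 0.65. ERP44, which retains oxidoreductases in the early secretory pathway, was the member called lower, at -0.34 ± 0.10 (adjusted p = 0.0184), a call that did not hold in all 4 scalings and was lost without untreated replicate 2 (-0.22, adjusted p = 0.167) or empty vector replicate 2 (-0.35, adjusted p = 0.0532). Leaving out any 1 library left 14 to 17 members called higher.

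Promoters of these genes are shown because a known DNA element of the unfolded protein response, the ER stress response element, can be read in them. The letters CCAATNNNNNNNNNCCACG were searched on both strands in the 250 bases before the start of each gene, in RefSeq sequence of GRCh38.p14. They were found in 22 of 27305 promoters (0.0806%), in 14 of 10627 promoters of tested protein-coding genes (0.132%) and in 6 of 27 promoters of the chaperone list (22.2%). Of the 14 tested genes with the element, CALR, CANX, CRELD2, EIF2A, HSP90B1, HSPA5 and XBP1 were called higher, and the other 7 were not called. EIF2A, a translation factor at 0.37 ± 0.13, was the weakest of these and was not called without untreated replicate 1 (0.26, adjusted p = 0.228), untreated replicate 3 (0.40, adjusted p = 0.0525), empty vector replicate 2 (0.33, adjusted p = 0.147) or empty vector replicate 3 (0.33, adjusted p = 0.116), nor with RLE factors, a median-ratio scaling (0.34, adjusted p = 0.0514), or the compared groups alone (0.35, adjusted p = 0.0557). A match describes the letters only and says nothing of use in these cells. The windows run 5′ to 3′ on the strand of the gene, with the matched bases in capitals:
HSPA5 (chr9:125241386-125241414, minus strand): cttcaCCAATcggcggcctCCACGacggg
HSP90B1 (chr12:103930211-103930239, plus strand): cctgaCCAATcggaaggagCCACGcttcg
HSP90B1 (chr12:103930316-103930344, plus strand): gggtgCGTGGtgcggcgcgATTGGtgggt
CALR (chr19:12938379-12938407, plus strand): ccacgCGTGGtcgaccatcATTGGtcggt
CANX (chr5:179698773-179698801, plus strand): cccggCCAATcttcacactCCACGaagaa
CRELD2 (chr22:49918549-49918577, plus strand): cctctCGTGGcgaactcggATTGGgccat
XBP1 (chr22:28800598-28800626, minus strand): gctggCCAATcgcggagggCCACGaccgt
In CALR, CRELD2 and the second window of HSP90B1 the element lies on the opposite strand, so it reads CGTGG first and ATTGG last.

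Among 18 sensors and factors of ER stress, 5 were called higher (27.8%) and 2 lower (11.1%), against 10.2% and 9.37% of all genes. In all 4 scalings 3 of the rises and none of the falls held. With RLE factors the split was 3 and 2, and with library totals alone 15 and 0. XBP1, the factor activated by IRE1 splicing, was at 87.3, 91.5 and 95.6 CPM in untreated and 134, 129 and 136 CPM in transfected cells (log2 fold change 0.54 ± 0.07, adjusted p = 1.41e-06). The groups were narrow and separate, and counts per gene do not tell spliced from unspliced XBP1. ATF6 rose by 0.56 ± 0.12 (adjusted p = 0.000759), and the genes of the sensors PERK and IRE1, EIF2AK3 and ERN1, rose by 0.45 and 0.35 (adjusted p = 0.0172 and 0.0309). EIF2AK3 was not called without untreated replicate 1 (0.31, adjusted p = 0.157), untreated replicate 2 (0.41, adjusted p = 0.0737) or empty vector replicate 2 (0.40, adjusted p = 0.0945). ERN1 was not called without untreated replicate 1 (0.30, adjusted p = 0.136), untreated replicate 2 (0.34, adjusted p = 0.0819), empty vector replicate 2 (0.33, adjusted p = 0.11) or empty vector replicate 3 (0.33, adjusted p = 0.0848), nor with RLE factors (0.32, adjusted p = 0.051), without a filter on low counts (0.35, adjusted p = 0.0639) or in a fit of the compared groups alone (0.34, adjusted p = 0.0543). In all, 2 members were called higher without empty vector replicate 2, untreated replicate 1 or untreated replicate 2, and 3 without empty vector replicate 3. Of 34 genes of protein translocation and ER-associated degradation 14 were called higher and 6 lower, and 13 and 2 of these calls held in all 4 scalings (23 and 2 with library totals alone). SSR1, a subunit of the translocon-associated complex, was among the lower ones at -0.50 ± 0.09 (adjusted p = 9.6e-05). In 31 genes of transport between ER and Golgi, 12 were called higher and 5 lower (22 and 0 with library totals alone). The 11 of these calls that held in all 4 scalings were rises, and the number called lower was 1 without empty vector replicate 2 and 3 without untreated replicate 1. TMED7, a cargo receptor of these vesicles, had the largest fold but overlapping groups, at 1.48, 1.68 and 1.73 against 1.72, 3.27 and 6.301 CPM, and its locus is shared with a readthrough gene. Without empty vector replicate 3 TMED7 was not called (0.62, adjusted p = 0.149).

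Most genes of the ISR list rose. Of 18 members 15 were called higher and 1 lower, the median log2 fold change was 0.64, and the 15 rises held in all 4 scalings. ATF4, its central transcription factor (chromosome 22, 39519695 to 39522685, plus strand), was at 205, 222 and 223 CPM in untreated and 334, 309.6 and 296 CPM in empty vector libraries. Its groups did not overlap, and the log2 fold change of 0.53 ± 0.07 (adjusted p = 7.49e-07) refers to the mRNA, whereas the pathway acts mainly on ATF4 translation. Several of its targets had larger fold changes. DDIT3, the proapoptotic factor CHOP, was at 4.46, 4.85 and 5.22 against 9.31, 9.101 and 8.02 CPM (log2 fold change 0.86 ± 0.14). TRIB3, a pseudokinase that restrains ATF4, was at 61.4, 56.4 and 62.3 against 107, 96.1 and 95.98 CPM (log2 fold change 0.73 ± 0.07). STC2, a secreted glycoprotein, was at 48.2, 49.04 and 45.9 against 106, 105 and 106 CPM with little spread in either group (log2 fold change 1.15 ± 0.07, adjusted p = 4.65e-13). NUPR1, a stress-induced chromatin protein, rose by 0.97 and CHAC1, which degrades glutathione, by 0.70. PPP1R15A, the phosphatase subunit that reverses eIF2 phosphorylation, rose by 0.58. ATF5, a relative of ATF4 that is also under translational control, was the lower member at -0.44 ± 0.09 (adjusted p = 0.000952), and it was not called with library totals alone (-0.19, adjusted p = 0.114).

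Secreted stress factors, many of them ISR or HIF targets, included some of the largest folds. Of 16 tested members 11 were called higher, with a median log2 fold change of 0.92, and the other 5 were not called. GDF15, a circulating stress hormone (chromosome 19, 18374731 to 18389176, plus strand), was at 0.313, 0.1103 and 0.397 CPM in untreated and 1.08, 1.66 and 1.44 CPM in transfected cells, from 11, 4 and 14 and 43, 73 and 62 reads. IGFBP1, a binding protein of insulin-like growth factors, was at 0.0569, 0.221 and 0.1701 against 0.959, 0.976 and 1.81 CPM, from 2, 8 and 6 and 38, 43 and 78 reads. For both the groups were apart, and the low untreated counts leave wide errors: the log2 fold change was 2.34 ± 0.41 for GDF15 (adjusted p = 9.98e-05) and 3.03 ± 0.46 for IGFBP1 (adjusted p = 1.58e-05). IGFBP3, the main serum carrier of these growth factors, was better covered, at 7.65, 11.1 and 10.4 against 26.97, 29.05 and 27.7 CPM (log2 fold change 1.52 ± 0.11, adjusted p = 1.03e-10).

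Genes of amino acid supply were called mostly higher. Of 19 enzymes of amino acid and one-carbon synthesis 11 were called higher and 2 lower, and of 14 transporters 9 were higher and 1 lower. In all 4 scalings 11 and 8 of the rises held, and none of the falls. ASNS, which makes asparagine, was at 65.3, 72.2 and 65.8 CPM in untreated and 109, 112 and 116 CPM in transfected cells (log2 fold change 0.73 ± 0.07, adjusted p = 1.7e-08). PSAT1, the second enzyme of serine synthesis, was at 33.7, 38.6 and 40.6 against 65.6, 67.5 and 87.4 CPM, with empty vector replicate 3 the highest. The mitochondrial folate enzyme MTHFD2 rose by 0.84 and CTH, which makes cysteine, by 1.07. PHGDH, the first enzyme of serine synthesis, was at 701, 679 and 640.3 against 714, 649 and 628 CPM, with overlapping groups (log2 fold change -0.02 ± 0.07, adjusted p = 0.871), and it was called higher with library totals alone (0.22, adjusted p = 0.00288). SLC7A11, the cystine importer, had 0.3696, 0.221 and 0.312 against 0.883, 1.16 and 1.28 CPM (log2 fold change 1.87 ± 0.41), and its partner chain SLC3A2 rose by 0.55. Of the enzymes that charge tRNA in the cytosol 12 of 20 were called higher and 4 lower. Of the mitochondrial ones 1 of 17 was higher and 2 lower (5.9% and 11.8%, against 10.2% and 9.37% of all genes). With library totals alone the cytosolic split was 16 and 0 and the mitochondrial one 8 and 0, and with totals of genes not mitochondrially encoded the mitochondrial one was 4 and 1. The mitochondrial count of falls was 4 without empty vector replicate 1 and 1 without empty vector replicate 2, empty vector replicate 3 or untreated replicate 1. CARS rose by 0.68 ± 0.08, while VARS had -0.38 ± 0.07 (adjusted p = 0.000251) (not called with library totals alone, -0.14, adjusted p = 0.0858), and none of the 4 cytosolic calls toward lower levels held in all 4 scalings. The difference between the compartments was not tested.

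A second element, the amino acid response element TGATGNAA to which ATF4 dimers can bind, was searched in the same windows on both strands. It was present in 870 of 27305 promoters (3.19%), in 142 of 10627 of tested protein-coding genes (1.34%), in 3 of 15 of the ISR list, in 4 of 12 of the amino acid enzymes (33.3%) and in 2 of 16 of the cytosolic tRNA enzymes (12.5%). Of the amino acid enzymes called higher 1 of 6 had it, ASNS, and of the amino acid transporters 0 of 12. Among all protein-coding genes it was in 23 of 1255 called higher (1.83%) and 14 of 1168 called lower (1.2%). Windows of genes called higher are shown, 5′ to 3′ on the gene's strand, with the element in capitals:
ATF3 (chr1:212565206-212565233, plus strand): aaggtcaggaTGATGgAAggctgtcata
CHAC1 (chr15:40953252-40953279, plus strand): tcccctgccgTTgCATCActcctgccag
PPP1R15B (chr1:204412027-204412054, minus strand): ccgccccggcTGATGcAAcctcacgctg
ASNS (chr7:97872459-97872486, minus strand): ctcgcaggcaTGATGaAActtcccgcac
ATF3, a repressor of the ATF family, rose by 0.81 ± 0.18, CHAC1 by 0.70 ± 0.12, PPP1R15B, the constitutive eIF2 phosphatase subunit, by 0.31 ± 0.10 and ASNS by 0.73 ± 0.07. PPP1R15B was not called without untreated replicate 1 (0.23, adjusted p = 0.19), untreated replicate 2 (0.33, adjusted p = 0.0511), empty vector replicate 2 (0.29, adjusted p = 0.111) or empty vector replicate 3 (0.30, adjusted p = 0.0733), nor with the compared groups alone (0.30, adjusted p = 0.0548). In CHAC1 the letters lie on the opposite strand. Where this window held no match, as for DDIT3 and TRIB3, the search covered only the stretch before the start.

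**Figure D3:**
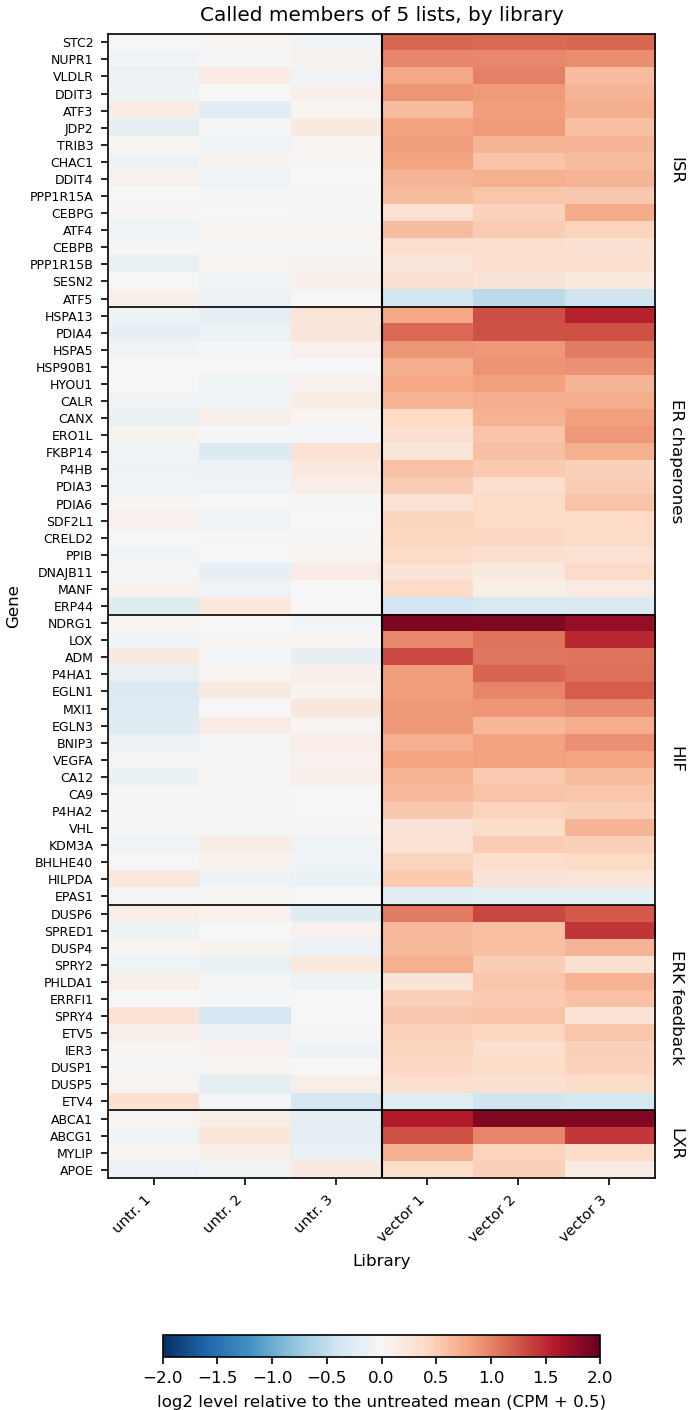
Called members of the ISR, ER chaperone, HIF, ERK feedback and LXR lists (rows, each gene once) in the 6 libraries (columns), as log2 level relative to the mean of the untreated libraries after adding 0.5 CPM. The 3 empty vector columns are red for nearly all rows; on these TMM-scaled levels ATF5, ERP44, EPAS1 and ETV4 are the blue ones, of which EPAS1 changes sign with library totals alone.

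Genes of the HIF pathway rose widely. Of 25 members 18 were called higher and 1 lower, the median log2 fold change was 0.59, and the 18 rises held in all 4 scalings and numbered 17 or 18 with any library left out. VEGFA, the main angiogenic ligand, was at 61.3, 61.6 and 67.01 CPM in untreated and 109.7, 111 and 109.7 CPM in empty vector libraries. The transfected libraries were nearly identical, and the log2 fold change was 0.80 ± 0.07 (adjusted p = 6.42e-10). LOX, which crosslinks collagen, was at 20.8, 23.2 and 22.8 against 43.8, 47.7 and 63.98 CPM, with empty vector replicate 3 the highest (log2 fold change 1.22 ± 0.10, adjusted p = 4.53e-10). The vasoactive peptide precursor ADM rose by 1.21 ± 0.14 and P4HA1, a collagen prolyl hydroxylase, by 1.07 ± 0.10. CA9, a membrane carbonic anhydrase and hypoxia marker, was at 108, 105 and 105 against 167, 157 and 156 CPM, with the groups well apart (log2 fold change 0.59 ± 0.06). EGLN1, the oxygen sensor that marks HIF for destruction and is itself a HIF target, rose by 1.05 ± 0.12, and VHL, which recognises the marked protein, rose by 0.45 ± 0.09. The mRNAs of the HIF subunits were not called higher: HIF1A was at 64.9, 76.5 and 65.96 against 51.3, 62.02 and 63.5 CPM, lower in every transfected library (log2 fold change -0.23 ± 0.08, adjusted p = 0.0517). Whether HIF1A was called lower depended on the setting. It was called with the replicate block (-0.23, adjusted p = 0.0446), RLE factors (-0.26, adjusted p = 0.0203), no filter on low counts (-0.23, adjusted p = 0.0237), a filter of 1 CPM (-0.23, adjusted p = 0.0471), the compared groups alone (-0.24, adjusted p = 0.0398) and DESeq2 (-0.26, adjusted p = 0.0254). It was also called without untreated replicate 1 (-0.28, adjusted p = 0.0295), untreated replicate 3 (-0.26, adjusted p = 0.0478) or empty vector replicate 3 (-0.29, adjusted p = 0.0326), while its value with library totals alone was 0.02. EPAS1, which encodes HIF2, was the member called lower at -0.20 ± 0.06 (adjusted p = 0.0194), a direction that flipped to 0.045 with library totals alone and a call that was lost without untreated replicate 2 (-0.20, adjusted p = 0.061) or empty vector replicate 2 (-0.20, adjusted p = 0.061).

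Glycolysis genes rose in part, with 11 of 25 called higher (44%) and 2 lower (8%), against 10.2% and 9.37% of all genes. The 11 rises held in all 4 scalings, and with library totals alone the split was 22 and 0. HK2, which traps glucose in the cell, was at 29.7, 27.8 and 29.5 CPM in untreated and 49.7, 51.1 and 55.3 CPM in transfected cells (log2 fold change 0.84 ± 0.08, adjusted p = 2.81e-09). The glucose transporter SLC2A1 rose by 0.68 ± 0.07, and PDK1, which keeps pyruvate out of mitochondria, by 1.15 ± 0.17. GAPDH, often used as a reference gene, was at 13636, 13170 and 11460 against 12165, 10640 and 10789 CPM, with overlapping groups and an adjusted p of 0.109. It was called lower without untreated replicate 3 (-0.26, adjusted p = 0.0317) or empty vector replicate 1 (-0.25, adjusted p = 0.0219), without a filter on low counts (-0.19, adjusted p = 0.0234), and by DESeq2 (-0.22, adjusted p = 0.0219) and limma-voom (-0.19, adjusted p = 0.0334).

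The HIF core element ACGTGC was found in 1598 of 27305 promoter windows (5.85%) and 797 of 10627 of tested protein-coding genes (7.5%), with 9 of 20 in the HIF list and 5 of 22 in the glycolysis list (22.7%). Among all protein-coding genes its share was alike in both directions, 113 of 1255 called higher (9%) and 103 of 1168 called lower (8.82%). A link of the element with the rises was not tested. Examples from genes called higher show its place, with the core in capitals:
LOX (chr5:122078361-122078386, minus strand): tgtccgccttGCACGTttccaatcgc
LOX (chr5:122078286-122078311, minus strand): aactttgcaaACGTGCcagaaagttt
EGLN1 (chr1:231422288-231422310, minus strand): gccgtggtgtACGTGCagagcgc
CA9 (chr9:35673899-35673924, plus strand): cgtttccaatGCACGTacagcccgta
HK2 (chr2:74834068-74834093, plus strand): atgggcgtgcGCACGTcactgatccg
BNIP3 (chr10:131982041-131982068, minus strand): cgcacgcgccGCACGTGCcacacgcacc
The first window of LOX and those of CA9 and HK2 carry the core on the opposite strand, as GCACGT. In BNIP3, a mitophagy receptor that rose by 0.82 ± 0.07, the matches of both strands overlap in a palindrome.

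The rise of ABCA1 was shared by few genes of cholesterol export. The liver X receptors (LXR), activated by oxysterols, drive this programme. Of 13 tested members of an LXR list 4 were called higher: ABCA1 itself, ABCG1, MYLIP and APOE. The other 9 were not called, and the median log2 fold change of -0.09 turned to 0.15 with library totals alone. ABCG1, a cholesterol pump that hands sterol to lipoproteins, was at 0.711, 1.02 and 0.624 CPM in untreated and 2.599, 2.02 and 2.93 CPM in transfected cells, without overlap (log2 fold change 1.67 ± 0.29, adjusted p = 0.000106). MYLIP, the ligase that degrades the LDL receptor, rose by 0.56 ± 0.17, a call that was lost without untreated replicate 3 (0.48, adjusted p = 0.0704) or empty vector replicate 1 (0.45, adjusted p = 0.0628). APOE, a lipoprotein component, had overlapping groups at 0.34 ± 0.09 and was not called without untreated replicate 1 (0.27, adjusted p = 0.0647), untreated replicate 2 (0.29, adjusted p = 0.0561) or empty vector replicate 2 (0.26, adjusted p = 0.0848). The receptor genes NR1H3 and NR1H2 had log2 fold changes of -0.06 ± 0.12 and -0.13 ± 0.07, with adjusted p of 0.783 and 0.182, though NR1H2 was called lower without empty vector replicate 1 (-0.20, adjusted p = 0.0398). Of 25 genes of sterol synthesis and uptake 5 were called higher and 5 lower (20% each way), a split that moved with the setting. It was 5 and 10 with RLE factors, 4 and 10 by DESeq2 and 12 and 0 with library totals alone, and the 5 calls that held in all 4 scalings were rises. The number called higher was 2 without empty vector replicate 2, empty vector replicate 3 or untreated replicate 1 and 3 without untreated replicate 2, and the number called lower was 8 without empty vector replicate 1 and 3 without empty vector replicate 2. Of 19 genes of fatty acid synthesis 8 were called higher and 3 lower, and 6 of the rises and none of the falls held in all 4 scalings. With library totals alone that split was 14 and 0, and 4 were called higher without empty vector replicate 3. SREBF1, the master factor of fatty acid synthesis, was at 216, 196 and 220.5 against 336, 316 and 304 CPM (log2 fold change 0.60 ± 0.07, adjusted p = 1.25e-07). INSIG2, which retains SREBP in the ER, rose by 0.92 ± 0.19. Among 12 tested genes of lipid storage and oxidation, which include ANGPTL4, 3 were called higher (25%) and 2 lower (16.7%), against 10.2% and 9.37% of all genes. Their median log2 fold change was 0.004, and only the 3 rises held in all 4 scalings. ANGPTL4, an inhibitor of lipoprotein lipase induced by fatty acids and by hypoxia, was at 6.43, 3.501 and 3.32 against 16.7, 15.9 and 13.2 CPM (log2 fold change 1.79 ± 0.18, adjusted p = 1.38e-08). Untreated replicate 1 was its highest untreated value and still far below the transfected ones.

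Most listed negative regulators of growth factor signalling were called higher. ERK kinases act downstream of growth factor receptors, and the genes that damp them are themselves ERK targets. Of 17 members of this feedback list 11 were called higher and 1 lower, and the 11 rises held in all 4 scalings. DUSP6, a phosphatase of ERK, was at 1.39, 1.32 and 0.964 CPM in untreated and 3.05, 3.86 and 3.56 CPM in empty vector libraries (log2 fold change 1.51 ± 0.22, adjusted p = 1.24e-05). SPRED1, an inhibitor of RAF activation, was at 1.36, 1.52 and 1.62 against 2.62, 2.52 and 4.88 CPM, with empty vector replicate 3 well above the others. ETV4, a transcription factor often induced by ERK, was the member called lower at -0.33 ± 0.10 (adjusted p = 0.016). That call did not hold in all 4 scalings and was lost without untreated replicate 1 (-0.16, adjusted p = 0.25), empty vector replicate 2 (-0.29, adjusted p = 0.0813) or empty vector replicate 3 (-0.32, adjusted p = 0.0535). Among 20 immediate early genes 9 were called higher, 8 of them in all 4 scalings, and the other 11 were not called. FOS was at 2.27, 2.89 and 2.89 against 4.79, 5.72 and 5.39 CPM (log2 fold change 0.98 ± 0.18), and EGR1 at 15.4, 9.54 and 10.4 against 19.6, 21.2 and 19.1 CPM (log2 fold change 0.76 ± 0.15), each without overlap.

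Genes of the response to foreign nucleic acid gave calls in both directions. Cytosolic DNA can be sensed by cGAS, which signals through STING to interferon. IFNB1, the interferon made first in this response, had no read in any of the 6 libraries. Of 24 tested interferon-response genes 4 were called higher (16.7%) and 2 lower (8.3%), against 10.2% and 9.37% of all genes, and 9 and 1 were called with library totals alone. In this list 1 was called higher without empty vector replicate 2 or untreated replicate 1, and 2 without empty vector replicate 3. IFIT1, which binds foreign RNA, was at 0.3696, 0.827 and 1.16 CPM in untreated and 0.933, 2.43 and 2.56 CPM in transfected cells, with overlapping groups (log2 fold change 1.33 ± 0.37, adjusted p = 0.00944). It was not called without untreated replicate 1 (0.98, adjusted p = 0.0702), empty vector replicate 2 (1.15, adjusted p = 0.0621) or empty vector replicate 3 (1.10, adjusted p = 0.0706). ISG15, a ubiquitin-like interferon target, went the other way, at 56.1, 55.3 and 49.2 against 39.1, 34.9 and 37.2 CPM (log2 fold change -0.53 ± 0.08, adjusted p = 6.74e-06). Among 13 nucleic acid sensors 4 were called higher (30.8%) and 1 lower (7.7%), against 10.2% and 9.37% of all genes (7 and 0 with library totals alone). The gene of cGAS, listed under its older symbol MB21D1, was at 3.24, 2.81 and 3.71 against 4.52, 6.58 and 7.02 CPM without overlap (log2 fold change 0.89 ± 0.18, adjusted p = 0.000713). The gene of STING, TMEM173, was at 209, 196 and 206 against 197, 177 and 188 CPM (adjusted p = 0.18). A single sensor gene was called higher without empty vector replicate 2 or untreated replicate 1, and 2 without empty vector replicate 3 or untreated replicate 3. Class I antigen presentation rose in part, with 6 of 14 members called higher and the other 8 not called. B2M, the shared light chain of class I molecules, was at 70.7, 77.8 and 95.9 against 121, 132 and 146 CPM (log2 fold change 0.70 ± 0.10, adjusted p = 4.28e-06). HLA-B, whose reads can be shared with near-identical class I genes, was at 223, 239 and 282 against 351, 359 and 373 CPM. NF-kappaB and cytokine genes gave 2 calls in 16, both lower (12.5%, against 9.37% of all genes). Among them was CCL2, a chemokine for monocytes, at 1.79, 1.63 and 1.59 against 0.606, 0.704 and 0.837 CPM (log2 fold change -1.22 ± 0.32, adjusted p = 0.00641).

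**Figure D4:**
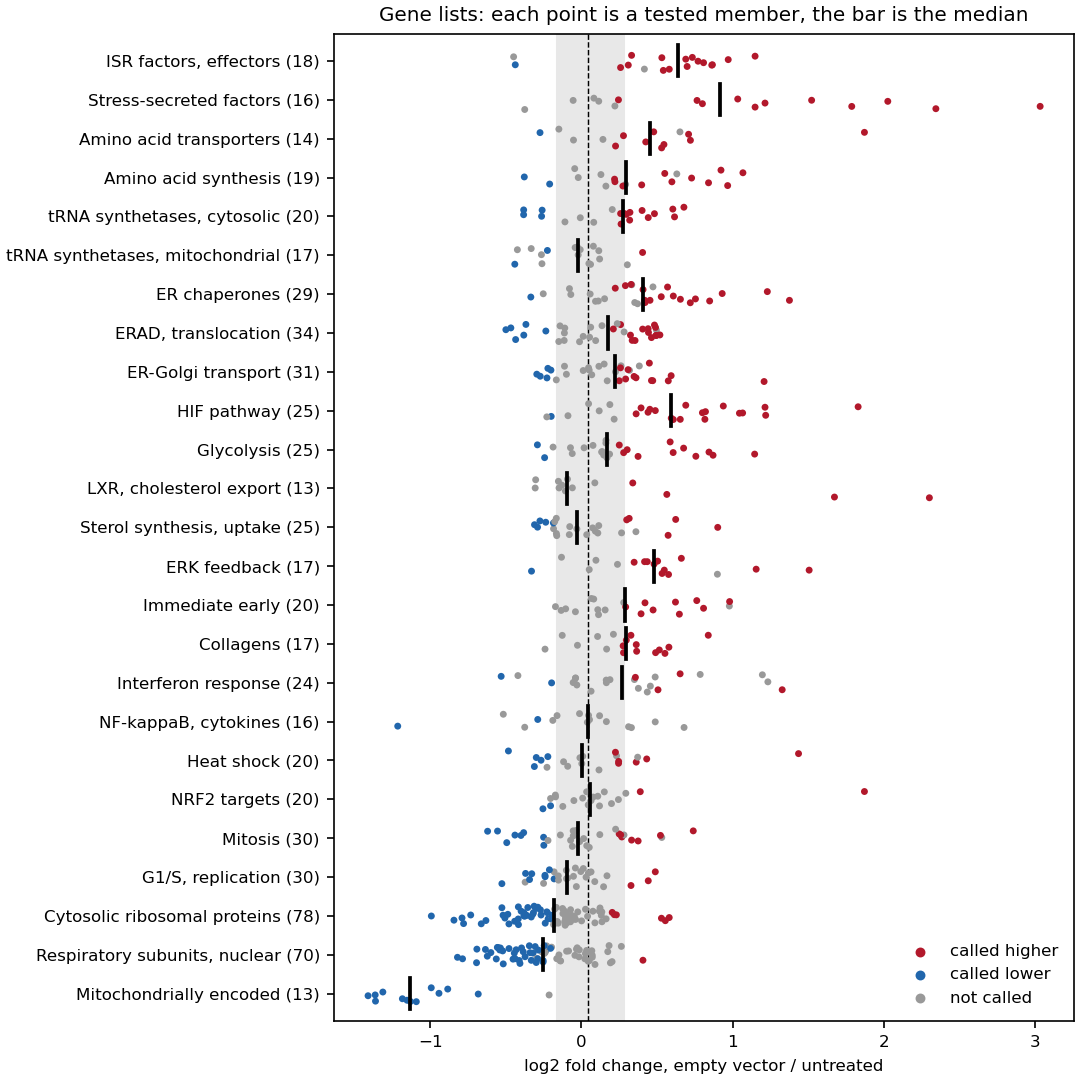
Each point is a tested member of a gene list (number of members in brackets), placed by its log2 fold change of empty vector over untreated cells and coloured by its call; black bars are list medians. The dashed line is the median of all tested genes, 0.044, and the grey band spans their middle quartiles; the ISR, secreted, ER chaperone and HIF lists lie to the right and the mitochondrially encoded list far to the left.

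Transcripts encoded in mitochondrial DNA took a smaller share of the transfected libraries. They made up 22.4, 21.6 and 18.6% of counts in the untreated and 11.7, 10.3 and 11.7% in the empty vector libraries. The groups did not overlap, the difference of the means was -9.65 percentage points, and the exact permutation p of 0.1 is the smallest that 3 against 3 libraries allow. Of 26 tested mitochondrial genes 18 were called lower, 12 of the 13 mRNAs and 6 of the 13 rRNA and tRNA genes. The mRNAs had a median log2 fold change of -1.13, and their 12 falls held in all 4 scalings and with any library left out. MT-CO2, subunit 2 of cytochrome c oxidase (mitochondrial genome, 7586 to 8269), was at 60586, 56171 and 42162 CPM in untreated and 24613, 19520 and 19767 CPM in transfected cells. Untreated replicate 3 was the lowest of its group and still far above the transfected libraries (log2 fold change -1.31 ± 0.11, adjusted p = 4.53e-10). MT-ND4, a complex I subunit, was at 40318, 38462 and 32793 against 15106, 12741 and 15530 CPM (log2 fold change -1.36 ± 0.09). MT-ND6, the mRNA transcribed from the opposite strand to the others, was at 225, 175 and 113 against 174, 165 and 103 CPM, with overlapping groups (log2 fold change -0.21 ± 0.19, adjusted p = 0.481). Without a filter on low counts MT-ND6 was called lower (-0.21, adjusted p = 0.0164). The large ribosomal RNA MT-RNR2 was at 7803, 8778 and 6389 against 5461, 4497 and 5019.5 CPM, a smaller change of -0.62 ± 0.10, in libraries made from polyadenylated RNA. In the FOXF1 plasmid libraries MT-CO2 was at 28197, 27980 and 27350 CPM, between the other groups. Nuclear copies of mitochondrial sequence can share reads with these genes, and MT-ND6 overlaps the UTR of its antisense neighbour, with the strand setting of the counting unknown.

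Many nuclear genes of the respiratory chain were called lower, by smaller amounts. Of 70 tested subunits of complexes I and III to V, 37 were called lower, 1 higher and 32 neither. Their median log2 fold change was -0.25, which became -0.008 with library totals alone, and 20 of the falls held in all 4 scalings. On library totals alone 20 were called lower and 15 higher. Relative to the median of all genes the list lay at -0.30 under each of the 4 scalings. A scaling shifts all genes by nearly the same amount, so this value could hardly differ and is no check on the scaling. UQCR10, a small subunit of complex III, was at 193, 196 and 151 CPM in untreated and 119.5, 89.4 and 96.95 CPM in transfected cells (log2 fold change -0.82 ± 0.09, adjusted p = 8.5e-08). NDUFA3, a supernumerary subunit of complex I, was at 92.6, 96.03 and 76.3 against 59.1, 46.9 and 47.7 CPM (log2 fold change -0.79 ± 0.09). For both, untreated replicate 3 was the lowest untreated and empty vector replicate 1 the highest transfected library, and the groups stayed apart. NDUFS1, a large core subunit of complex I, was the member called higher, at 19.8, 26.6 and 23.4 against 28.5, 31.2 and 32.8 CPM, and was not called without untreated replicate 1 (0.29, adjusted p = 0.0799). The listed machinery of mitochondrial DNA replication, transcription and RNA processing, without ribosomal proteins, had a median of -0.001 over 23 members. In it 2 were called lower (8.7%, against 9.37% of all genes). Its median with library totals alone was 0.24 with 10 called higher and 0 lower, 4 were lower with RLE factors or by DESeq2, and without empty vector replicate 1 the split was 4 higher and 3 lower. CS, the citrate synthase of the Krebs cycle, was at 217, 225 and 209.7 against 131, 115 and 130.2 CPM, and UCP2, a mitochondrial carrier, at 253, 232 and 217 against 129, 106 and 126 CPM, with log2 fold changes of -0.79 ± 0.07 and -0.96 ± 0.07. CS was singled out after its values were seen.

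Cytosolic ribosomal protein genes also had more falls than rises, with 37 of 78 called lower and 6 higher. The median of -0.18 became 0.06 with library totals alone, and 14 of the falls and 3 of the rises held in all 4 scalings. With library totals alone 14 were lower and 24 higher, and without empty vector replicate 3, untreated replicate 1 or untreated replicate 2, 3 were called higher. RPL23A was at 1189, 1275 and 1026 CPM in untreated and 697, 517 and 539 CPM in transfected cells (log2 fold change -0.99 ± 0.09, adjusted p = 2.29e-09). RPS26 was at 519, 537 and 438 against 323, 244 and 266 CPM. RPS3A went up, at 277, 311 and 350.4 against 467, 431 and 505 CPM (log2 fold change 0.58 ± 0.08, adjusted p = 6.95e-06), as did RPL9 by 0.55 ± 0.08, each without overlap between groups. Ribosomal protein genes have many processed copies in the genome, so how reads were shared among them is uncertain.

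Transcript length and GC content moved with the direction of change. Among 13215 nuclear protein-coding genes, those whose longest transcript is at most 1000 bases had a median log2 fold change of -0.15, with 2.85% called higher and 30.1% lower. Between 4000 and 8000 bases the median was 0.09, with 13.3% higher and 6.94% lower. Genes of at most 40% GC had a median of 0.23, with 14.7% higher and 1.74% lower, against -0.08, 6.1% and 20.2% above 60% GC. The respiratory subunits are short, with median longest transcripts of 1377 bases for complex I and 1585 for the others, and so are the ribosomal proteins at 1985 and 1575 bases. In genes of 1000 to 2000 bases 8.57% were called higher and 19.3% lower. The median GC of these lists was 48.5% for complex I, 47.7% for the other subunits and 47.9 and 48.5% for the ribosomal proteins. Between 45 and 50% GC, 14.2% of genes were called higher and 9.3% lower. The ISR, ER chaperone and HIF lists had median lengths of 2438, 3032 and 3737 bases and a median GC of 51.6, 49.6 and 49.1%, in bins whose median log2 fold change was 0.01 to 0.06. The part of length and GC in the falls was not tested.

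Growth and division genes went both ways. Of 30 mitosis genes 7 were called higher (23.3%) and 8 lower (26.7%), against 10.2% and 9.37% of all genes. Their median of -0.02 became 0.22 with library totals alone, where the split was 15 and 4. MKI67, a proliferation marker, was at 301, 312 and 236 CPM in untreated and 196, 196 and 186 CPM in transfected cells (log2 fold change -0.56 ± 0.08, adjusted p = 1.58e-05). NDC80, a kinetochore component, went up, at 3.298, 4.19 and 2.64 against 4.77, 6.54 and 5.603 CPM (log2 fold change 0.74 ± 0.19), and was not called without empty vector replicate 2 (0.62, adjusted p = 0.0544). Without empty vector replicate 2 or untreated replicate 1 only 2 mitosis genes were called higher. KPNA2, an importin that carries proteins into the nucleus, was at 373, 430.5 and 346 against 202, 192 and 202 CPM (log2 fold change -0.95 ± 0.07, adjusted p = 9.87e-11). Of 30 genes of G1/S and replication 3 were called higher (10%) and 8 lower (26.7%), against 10.2% and 9.37% of all genes. In all 4 scalings 3 and 1 of these held (12 and 1 with library totals alone, 4 lower without untreated replicate 1 and 5 without empty vector replicate 3). CDKN1B, the cell cycle inhibitor p27, was at 1.62, 2.29 and 2.72 against 3.91, 4.27 and 5.93 CPM (log2 fold change 1.09 ± 0.22, adjusted p = 0.000454). CDKN1A, the inhibitor p21 and a p53 target, was at 33.6, 29.99 and 32.3 against 42.6, 40.8 and 40.8 CPM (log2 fold change 0.37 ± 0.08). Of 20 p53 targets 4 were called higher and 2 lower (20% and 10%, against 10.2% and 9.37% of all genes). The split was 13 and 0 with library totals alone, and 2 were higher without untreated replicate 1.

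Matrix genes rose in part. Of 17 tested collagen chains 11 were called higher, 10 of them in all 4 scalings, and the other 6 were not called. Their median GC was 60.3%, in a range where falls outnumbered rises among nuclear protein-coding genes. Their median longest transcript was 6616 bases, in a range (4000 to 8000) where 13.3% were called higher and 6.94% lower. The part of either property was not tested. COL6A3, a chain of the microfibrillar collagen VI, was at 7.39, 8.68 and 7.799 CPM in untreated and 15.01, 15.2 and 12.5 CPM in transfected cells (log2 fold change 0.84 ± 0.12, adjusted p = 9.53e-06). Among 20 integrins and laminins 9 were called higher and the other 11 were not called, with 6 or 7 called higher when empty vector replicate 2 or 3, or any untreated library, was left out. LAMB3, a chain of the epithelial basement membrane laminin, was at 9.78, 8.600 and 10.8 against 18.8, 19.5 and 19.3 CPM, each group tight (log2 fold change 0.98 ± 0.11, adjusted p = 8.31e-08). Of 15 tested proteases and protease inhibitors of matrix turnover 5 were called higher (33.3%) and 2 lower (13.3%), against 10.2% and 9.37% of all genes. In all 4 scalings 4 of these rises and the 2 falls held, and 3 to 6 were called higher with a library left out. TIMP1, an inhibitor of matrix metalloproteinases, was 1 of the falls, from 1202, 1221 and 950.0 to 716, 579.7 and 602 CPM (log2 fold change -0.83 ± 0.08, adjusted p = 2.24e-08).

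Other stress and clearance systems went both ways or moved in few members. Of 20 cytosolic heat shock genes 6 were called higher (30%) and 5 lower (25%), against 10.2% and 9.37% of all genes. Their median log2 fold change was 0.005, and 3 were higher without empty vector replicate 3 or untreated replicate 1 (11 and 1 with library totals alone). HSPA1A, the inducible HSP70, whose reads are shared with its copy HSPA1B, was at 153, 143 and 161 CPM in untreated and 122, 125 and 133 CPM in transfected cells, so that every transfected library was lower (log2 fold change -0.27 ± 0.06, adjusted p = 0.00284), a call that was lost with library totals alone (-0.02, adjusted p = 0.814). PFDN4, a subunit of the prefoldin chaperone, rose by 1.44 ± 0.27. Targets of NRF2, the factor of oxidative stress, gave 2 calls higher and 2 lower in 20 genes (10% each way, about the share among all genes, and 9 and 0 with library totals alone), and the rise of SLC7A11 given above is the largest of them. Metallothioneins, which bind metals, gave 2 falls in 6 tested genes (4 without empty vector replicate 1, and 3 without untreated replicate 1, with RLE factors, by DESeq2 or with the replicate block), among them MT2A at 1816, 1714 and 1811 against 1483, 1170.5 and 1302 CPM. The proteasome gave 4 rises and 4 falls in 27 genes (2 falls without empty vector replicate 2), and endocytosis 2 and 4 in 23, against 13 and 1 and 12 and 1 with library totals alone. With TMM the shares were 14.8% each way for the proteasome and 8.7% higher and 17.4% lower for endocytosis. Among all genes they were 10.2% and 9.37%. Lysosomal genes had 10 rises (33.3%) and 2 falls (6.7%) in 30, against 10.2% and 9.37% of all genes. Of these calls 6 and 1 held in all 4 scalings (21 and 1 with library totals alone). The number called higher was 5 without empty vector replicate 3 or untreated replicate 1 and 6 without untreated replicate 2.

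**Figure D5:**
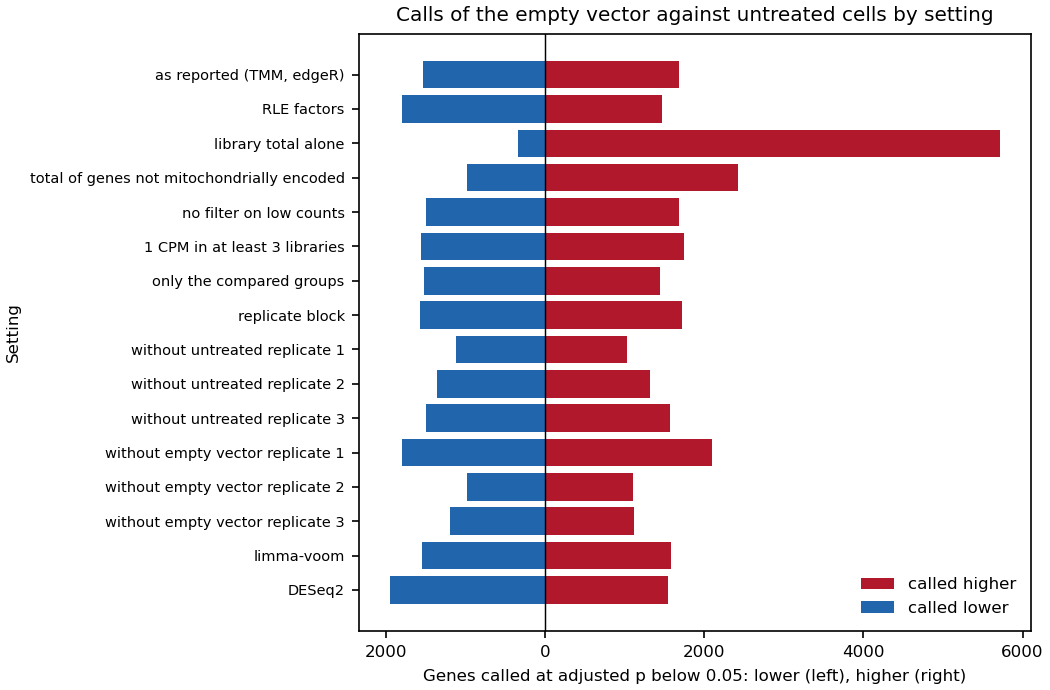
Number of genes called at an adjusted p below 0.05 (x axis; lower to the left, higher to the right of 0) under each setting of scaling, filter, test and libraries (y axis). Scaling by library total alone gives 5720 calls higher and 339 lower, against 1676 and 1533 as reported.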

How the data were processed

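RNA sequencing libraries of untreated, empty vector and FOXF1 plasmid cells, 3 each, were made with a stranded kit for mRNA, per the labels' protocols. Raw counts of reads per gene were deposited for 64253 genes and 9 libraries, per the file headers. Per the submitters' processing notes, bcl2fastq, STAR 2.5.2b and HTSeq were used with GRCh38. Not given in the sources used here: the strand setting and the annotation release. Gene positions come from GENCODE annotation of GRCh38, and promoter sequences from RefSeq (GRCh38.p14).

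Genes kept by filterByExpr (minimum count 10) were fitted in edgeR 4.0.16 (R 4.3.3) with TMM factors and 1 mean per group over all 9 libraries, and tested by quasi-likelihood. The contrast was empty vector minus untreated, called at a Benjamini-Hochberg adjusted p below 0.05. Each SE is approximate, the size of the log2 fold change over the root of its F statistic. The script was tested on simulated data. The 4 scalings were TMM, RLE, library totals, and totals of genes not mitochondrially encoded. Other alternatives were DESeq2 1.42.0, limma-voom (limma 3.58.1), no filter, a filter of 1 CPM in at least 3 libraries, the compared groups alone, a replicate block and leaving out each library. The mitochondrial share was tested by exact permutation.

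The genes, the 52 lists (1133 entries) and the tests were chosen with earlier results of these data known, so lists are described by counts and medians, with no test. The rule for naming took the 20 strongest rises and the 20 strongest falls among calls whose groups do not overlap and whose log2 CPM averages 1 or more, clone-style names and pseudogenes aside, and members of the lists, first those with the largest changes and then the regulators that name the list. Not every gene this rule allows is named. Replicate pairs differed by more than sampling noise (chi-square per degree of freedom 9.17 to 25.28), so none were merged. Their p-values reflect only the variation among these 6 libraries and the 3 others fitted. Same-numbered libraries had correlations of 0.084, 0.021 and 0.028 between their deviations, so the numbers were not used as pairs.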

Additional observations from a re-analysis of the deposited data

How the results depend on the processing

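The count of calls depended most on the scaling. With library totals alone 6059 genes were called, 5720 higher and 339 lower, and with totals of genes not mitochondrially encoded 989 were lower. Leaving out a library gave 2084 to 3902 calls, 1029 to 2100 higher and 986 to 1802 lower, with the same genes tested and fewer libraries. With the replicate block, a fit by replicate number, 3292 genes were called, 1719 higher and 1573 lower. RLE factors gave 1472 higher and 1805 lower, and DESeq2 1542 and 1954. A set of 110 named genes, of which 102 were called, was followed through the settings. Of the 102, 84 kept their direction and call under all 15 alternatives and 88 with each library left out. Not every gene named above is in this set. SFN, THY1 and KRT7 are outside it, and their calls were lost with library totals alone. With library totals alone EPAS1 turned from -0.20 to 0.045 (not called) and PHGDH from -0.02 to 0.22 (called). The mitochondrial share differed by -9.65 points with either set of genes. Depth leaves levels under about 0.08 CPM in a library unresolved.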

Other observations

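Some of the largest changes were in genes not named so far, all but PI3 outside the lists described. CGRRF1, a RING-finger protein of the ER, was at 1.36, 0.9096 and 1.62 CPM in untreated and 3.13, 2.97 and 4.77 CPM in empty vector libraries (log2 fold change 1.48 ± 0.25, adjusted p = 7.47e-05, edgeR quasi-likelihood test). CSF2RA, the alpha chain of the receptor for the cytokine GM-CSF, was at 1.39, 1.35 and 2.27 against 4.11, 4.11 and 3.98 CPM (log2 fold change 1.28 ± 0.22). MEFV, which encodes the inflammasome protein pyrin, was at 1.17, 1.05 and 1.67 against 2.85, 3.495 and 2.999 CPM (log2 fold change 1.27 ± 0.24). COL22A1, a collagen of tissue junctions, was at 1.68, 1.19 and 1.503 against 3.91, 3.61 and 2.93 CPM, and the nuclear import receptor IPO11 at 2.67, 2.54 and 2.35 against 4.72, 5.08 and 7.998 CPM. These 5 were taken by a rule that asked for groups without overlap, so their lack of overlap was fixed by that choice. Among all tested genes, called or not, 17.4% lay higher and 15.3% lower without overlap. On the falling side, the secreted protease inhibitor PI3 was at 4.41, 3.86 and 3.01 against 2.07, 1.16 and 1.63 CPM (log2 fold change -1.22 ± 0.24, adjusted p = 0.000347).

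Long noncoding RNAs gave 5 calls higher in 8 tested, and the other 3 were not called. H19, an imprinted transcript, was at 4.58, 4.22 and 5.96 CPM in untreated and 7.42, 7.42 and 6.86 CPM in transfected cells, and NEAT1, the scaffold of paraspeckles, at 105, 108 and 110.3 against 139, 160.1 and 166 CPM, with log2 fold changes of 0.56 ± 0.16 and 0.52 ± 0.07. MALAT1, a nuclear RNA, was at 42.4, 44.6 and 39.6 against 40.6, 51.3 and 48.5 CPM and was not called (adjusted p = 0.257). It was called higher without empty vector replicate 1 (0.24, adjusted p = 0.0433) and with library totals alone (0.40, adjusted p = 0.00481). H19 was not called without untreated replicate 1 (0.50, adjusted p = 0.0582) or untreated replicate 2 (0.45, adjusted p = 0.0801), and without untreated replicate 1 the number called higher was 3. Among genes often used for normalization, ACTB was at 6876, 6739 and 7356 against 5160.5, 4885 and 5849 CPM, lower in every transfected library (log2 fold change -0.40 ± 0.08, adjusted p = 0.000464), not called with library totals alone (-0.16, adjusted p = 0.0751), and was singled out after its values were seen.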
